A study of Mus musculus with 12 samples.

Results

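The p53 peaks of K17KO mouse skin that lie deep inside genes are described here. A peak of the K17KO p53 list was taken when its midpoint lay inside a protein-coding gene and more than 5 kb from the start and end of every protein-coding gene, and is called a deep peak below. The rule used position alone and no peak strength. It took 302 of the 1101 peaks of the list, against 417 within 5 kb of a gene start or end, 368 between genes and 14 on unplaced sequences. The 302 deep peaks fell in 293 genes, of which 282 held 1 deep peak and 11 held 2, and 2 of the peaks lay in a pair of overlapping genes.

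The study immunoprecipitated p53 and H3K4me3 (histone H3 carrying 3 methyl groups on lysine 4, found at active promoters) from back skin of mice aged 8 to 10 weeks, under a protocol of 5 Gy of ionizing radiation. The labels name 12 samples in 6 groups of 2: T0 and 6 h for p53 in K17KO, T0 and 6 h for p53 in wild type (WT), and T0 and 6 h for H3K4me3 in WT. They carry the radiation treatment on every sample, T0 included, and give neither strain nor sex. K17KO is the genotype as they write it, with no allele or full name, and nothing says whether paired samples came from separate animals. The files are 3 peak lists of mm10 positions, of 1101 peaks for K17KO p53, 2909 for p53 with no genotype named, taken here as WT, and 5464 for a list named only H3K4, taken here as H3K4me3. No list names a time point, library or replicate, so T0 and 6 h could not be compared and no value has a replicate error. The p53 lists reach down to different limits, with a lowest −log10 q of 1.04 for K17KO and 0.376 for WT. Their lowest −log10 p values were 4.07 and 3.03, and their narrowest peaks were 291 and 216 bp wide. A q-value of at most 0.01 was met by 73.0% of K17KO and 12.3% of WT peaks, and the median peak had 11 and 7 fragments. Every comparison of the lists below carries this difference. A peak list measures no expression, so the tissue could not be checked against its marker genes.

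The transcription factor p53 is stabilised by DNA damage and binds DNA as a tetramer at a pair of half-sites. Known p53 sites lie at promoters, in introns and at enhancers far from a gene start, and much p53 binding takes place away from promoters. A gene's body can also hold internal promoters, from which shorter transcripts or noncoding RNAs start, and active ones usually carry H3K4me3.

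Sequence was at hand for 5 of the 302 deep peaks, those that overlapped a window around a start site that RefSeq lists inside the gene (250 bases before to 50 after the start, GRCm38.p6, the same coordinates as mm10). These 5 are printed because they are the deep peaks that coincide with an internal start among the windows at hand. Each window runs 5′ to 3′ on the strand of its start, and capitals mark the bases covered by the peak.
Ralgds, chr2:28533214-28533513 (+ strand): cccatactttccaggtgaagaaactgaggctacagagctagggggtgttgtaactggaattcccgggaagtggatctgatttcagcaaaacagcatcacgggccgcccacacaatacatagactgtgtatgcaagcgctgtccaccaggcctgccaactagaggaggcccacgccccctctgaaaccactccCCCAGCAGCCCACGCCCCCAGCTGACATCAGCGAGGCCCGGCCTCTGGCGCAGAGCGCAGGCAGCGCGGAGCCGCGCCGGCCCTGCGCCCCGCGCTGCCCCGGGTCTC
Gabra5, chr7:57510010-57510309 (- strand): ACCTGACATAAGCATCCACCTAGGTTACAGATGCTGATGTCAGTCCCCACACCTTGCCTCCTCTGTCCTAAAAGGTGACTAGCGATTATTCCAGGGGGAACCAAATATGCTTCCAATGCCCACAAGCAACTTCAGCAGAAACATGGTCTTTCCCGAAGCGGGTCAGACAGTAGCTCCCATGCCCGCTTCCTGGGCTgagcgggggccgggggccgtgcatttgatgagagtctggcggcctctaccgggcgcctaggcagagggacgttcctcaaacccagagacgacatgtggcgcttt
Rec114, chr9:58741510-58741809 (- strand): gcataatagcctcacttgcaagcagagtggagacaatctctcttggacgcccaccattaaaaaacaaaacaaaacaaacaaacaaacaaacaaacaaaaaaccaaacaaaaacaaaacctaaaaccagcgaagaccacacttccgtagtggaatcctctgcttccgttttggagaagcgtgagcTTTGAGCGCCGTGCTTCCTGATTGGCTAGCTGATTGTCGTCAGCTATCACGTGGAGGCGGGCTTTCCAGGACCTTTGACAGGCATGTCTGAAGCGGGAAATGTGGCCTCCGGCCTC
Ank2, chr3:127409009-127409308 (- strand): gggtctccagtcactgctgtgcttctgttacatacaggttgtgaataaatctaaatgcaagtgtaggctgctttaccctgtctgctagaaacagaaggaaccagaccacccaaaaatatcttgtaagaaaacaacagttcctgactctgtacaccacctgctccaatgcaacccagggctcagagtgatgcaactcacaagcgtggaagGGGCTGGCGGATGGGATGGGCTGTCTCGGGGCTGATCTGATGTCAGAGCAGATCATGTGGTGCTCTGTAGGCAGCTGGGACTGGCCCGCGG
Gm38597 inside Afap1l2, chr19:56980575-56980874 (+ strand): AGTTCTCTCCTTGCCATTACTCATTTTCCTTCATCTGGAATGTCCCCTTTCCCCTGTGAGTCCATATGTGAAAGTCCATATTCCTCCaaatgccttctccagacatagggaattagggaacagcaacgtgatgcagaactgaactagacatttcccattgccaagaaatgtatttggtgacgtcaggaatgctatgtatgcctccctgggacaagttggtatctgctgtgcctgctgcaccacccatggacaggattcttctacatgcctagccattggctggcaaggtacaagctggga

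In the set of 5, the Ralgds peak had the highest fold enrichment and ranked 3 among all 302. Ralgds encodes an exchange factor that activates Ral GTPases downstream of Ras. Its peak rested on 16 fragments (95% Poisson interval 9.15 to 26.0) over a background of 1.56 fragments, a deposited fold of 6.65, and its midpoint lay 138.5 bp from a start that is 19.6 kb from the nearer end of the gene. The peak midpoint at Rec114, a meiotic recombination gene, lay 89 bp from its start (5.47-fold, 11 fragments over 1.20). That at Gabra5, which encodes a subunit of the GABA-A receptor, lay 201 bp away (4.11-fold, 7 over 0.945). The lowest fold of the 5 was that of Ank2, the gene of the membrane adaptor ankyrin-B, at 3.36 (12 over 2.87). The remaining window belongs to the start of the noncoding gene Gm38597, inside the actin-associated protein gene Afap1l2 (5.64-fold, 12 over 1.31).

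The windows differed in composition. The Ralgds window held 19 CG dinucleotides and was 64% G or C, and those of Gabra5 and Rec114 held 13 and 12 CG dinucleotides, all above the median of 7 over all listed windows. The Ank2 window held 5 and the Gm38597 window 2. The p53 half-site consensus was searched on both strands. It was present in 1 of the 5 windows, that of Rec114, as AGGCATGTCT from base 264 of the window, within the part covered by the peak. Over all 32817 windows of this length, 8.36% held a half-site and 0.0731% held a pair of half-sites 0 to 13 bases apart, which may overlap the single matches. None of the 5 held such a pair. A match is a string of letters and not a measured site, and a window without one says nothing about binding elsewhere in the peak. Another 4 deep peaks had a midpoint within 1 kb of a listed start without covering its window, at Tjp1, Tnrc18, Iqsec1 and Dcun1d5. Within 5 kb of a listed start there were 22 deep peaks (7.28%), against 50 of the 1005 WT deep peaks (4.98%), and no window was at hand for chromosome 18. Windows were also missing for genes elsewhere. The nearest listed start to the deep peak in Scara5, a gene of 98.4 kb, was 1428 kb away. Counts of peaks at listed starts are therefore minimums. Over the whole K17KO list 8.72% of peaks overlapped a start window, against the 5 of 302 deep ones (1.66%, 95% interval 0.540 to 3.82), a share that the distance rule itself lowers.

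The depth behind a deep peak was small. The fragments and the background at each summit were worked out from the fold and −log10 p that were deposited. Deep peaks rested on a median of 10 fragments, with the middle 50% between 9 and 12, over a median background of 1.39. The lowest had 6 fragments and the highest 55. The median fold was 4.50 and the quartiles were 3.94 and 5.11, against medians of 4.60 near gene ends and 4.68 between genes. The fold took 135 distinct values in 302 peaks, since few whole numbers of fragments and few backgrounds combine to make it. The shortest width in the list, 291 bp, was shared by 86 deep peaks, and the median width was 336 bp.

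**Figure D1:**
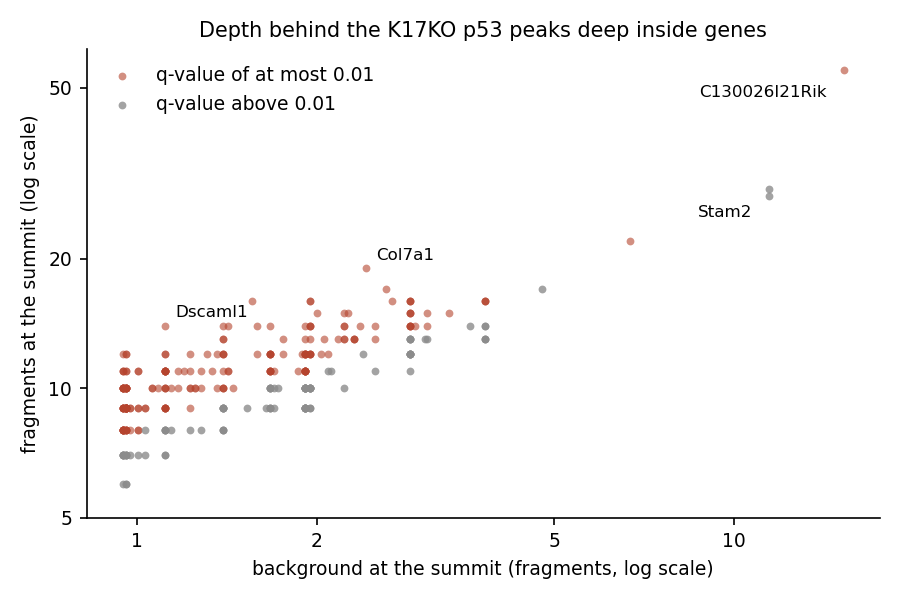
Fragments at the summit against background at the summit, both on log axes, for each of the 302 deep K17KO p53 peaks, coloured by whether the deposited q-value was at most 0.01. Most points lie between 6 and 16 fragments over a background under 3, and the 3 peaks with a background above 10 stand apart at the upper right.

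A q-value of at most 0.01 was met by 207 of the 302 deep peaks (68.5%, 95% interval 63.0 to 73.7), against 73.0% of the whole list. The share was 74.3% near gene ends and 75% between genes. Neither difference passed Fisher's exact test (−5.80 points, 95% interval −12.5 to 0.846, and −6.46 points, −13.3 to 0.365; adjusted p = 0.149 for both). These and the other comparisons of shares form a family of 8 two-sided Fisher tests with Benjamini-Hochberg adjustment. Peaks are their units, so intervals and p-values cover counting only. With the q-value limit set to 0.001 the first of these compared 80 of 302 with 145 of 417 (−8.28 points, Fisher's exact p = 0.0184, adjusted p = 0.0490). That adjusted value depends on the family holding the H3K4me3 test against near-end peaks, whose direction the distance rule favours. No difference is read from it.

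The deep peak of highest fold lay in Dscaml1, a neuronal cell adhesion gene of the immunoglobulin superfamily, 59.9 kb from the nearer end of the gene (chr9:45487197-45487553). It had 14 fragments (95% Poisson interval 7.65 to 23.5) over a background of 1.11, a fold of 7.10. With the background held fixed, that interval corresponds to folds from 4.10 to 11.6, and the folds of all other members of the top 10 lie inside it. A second deep peak in Dscaml1, 154.9 kb from that gene's nearer end, had 3.79-fold. Adamts19, a secreted metalloproteinase gene, followed at 6.68-fold with 12 fragments over 0.945. Galnt1, which encodes an enzyme that starts O-glycosylation, and Fbxo3, a ubiquitin ligase subunit gene, shared 6.65-fold with 12 fragments over 0.956 each.

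The top 10 then held a peak inside both Dock1, a Rac activator gene, and Insyn2a, which overlaps it (6.28-fold, 14 over 1.39), and one in the ferritin receptor gene Scara5 (6.20-fold, 14 over 1.42). The last 3 had 6.17-fold, each with 11 fragments over 0.945, in the ATPase gene Ola1, in Cntnap2, a neurexin family adhesion gene, and in the chloride channel gene Ano2. These genes span 35.4 kb (Fbxo3) to 2241 kb (Cntnap2), and Ralgds spans 40.0 kb. None of the 10 overlapped a WT p53 or an H3K4me3 peak.

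Ranked by the deposited −log10 p, 6 of these 10 stayed in the top 10 and Col7a1, Slit3, Thada and a site inside the overlapping genes C130026I21Rik and Gm38510 entered. Col7a1 encodes the collagen of the anchoring fibrils that hold the epidermis to the dermis. Its peak, 701 bp wide at chr9:108975138-108975838, had 19 fragments (95% Poisson interval 11.4 to 29.7) over 2.42, a fold of 5.85. Slit3, which encodes a ligand of Robo receptors, and Thada each had 16 fragments over 1.95 (5.77-fold). The C130026I21Rik site on chromosome 1 had the most fragments of all, 55 over a background of 15.3, with only 3.44-fold. It is 1 of 3 deep peaks with a background of 10 or more, the others being in Stam2 (29 over 11.5) and Ahnak2 (28 over 11.5), which also had the lowest folds named here, 2.41 and 2.33.

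How the deep peaks were spread over gene bodies was examined next. The regions the rule admits, the bodies of protein-coding genes without 5 kb around every gene start and end, came to 854.8 Mb. The 302 K17KO peaks gave 35.3 peaks per 100 Mb there (95% Poisson interval 31.5 to 39.5), and the zone within 5 kb of gene starts and ends, 327.2 Mb, gave 127.4 (115.5 to 140.3). In the WT list the densities were 117.6 (110.4 to 125.1) and 153.4 (140.3 to 167.4). Deep peaks made up 27.4% of the K17KO list (95% interval 24.8 to 30.2) and 34.5% of the WT list (32.8 to 36.3), a difference of −7.12 points (−10.2 to −3.92, Fisher's exact adjusted p = 6.634e-05). With a limit of 1 kb in place of 5 kb the difference was −1.39 points (Fisher's exact adjusted p = 0.437). Among peaks with a q-value of at most 0.01, 207 of 804 against 110 of 359, it was −4.89 points (Fisher's exact adjusted p = 0.326). Neither passed. The q-value limit kept 73.0% of K17KO but 12.3% of WT peaks, so those subsets are not matched. A different share was not particular to deep peaks. Peaks near gene ends took a larger share of the K17KO list (417 of 1101) than of the WT list (502 of 2909). Those between genes took a smaller share (368 of 1101 against 1397 of 2909). Both gaps were wider than that of deep peaks, and neither was tested. Genotype and list cannot be told apart, since each genotype is a single list.

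The density of deep peaks was lower in longer genes. In genes of 10 to 50 kb the K17KO list had 56.9 peaks per 100 Mb (95% Poisson interval 44.5 to 71.8). The values were 45.6 in genes of 50 to 100 kb, 37.3 at 100 to 200 kb and 29.4 at 200 to 500 kb. In the 227 genes over 500 kb it was 17.5 (12.0 to 24.6), an interval that lies below those of the 3 classes up to 200 kb. The WT list ran from 142.7 (122.5 to 165.3) in the shortest class to 87.5 (74.6 to 101.9) in the longest, with 120.0, 127.5 and 117.4 between them. Long genes, which offer more such sequence, held a deep peak more often: 13.7% of genes over 500 kb held a K17KO deep peak, against 0.776% of genes of 10 to 50 kb and 2.10% of all 13961 protein-coding genes over 10 kb.

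**Figure D2:**
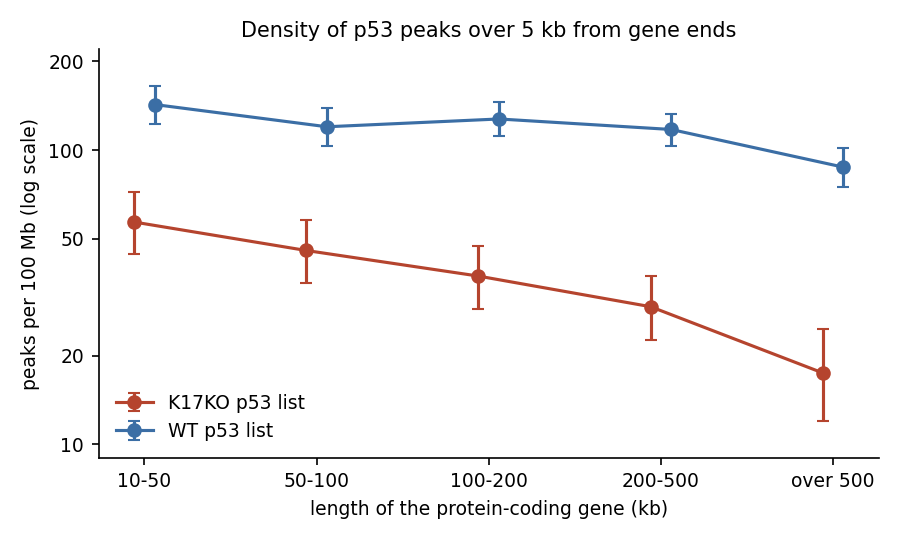
Peaks per 100 Mb of gene body lying over 5 kb from every protein-coding gene start and end (log scale), by length of the gene, for the K17KO and WT p53 lists, with 95% Poisson intervals for counting error. The K17KO density goes from 56.9 in the shortest class to 17.5 in the longest, and the WT density from 142.7 to 87.5.

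Genes of at most 100 kb held 137 of the 302 K17KO deep peaks (45.4%, 95% interval 39.7 to 51.2) and 354 of the 1005 WT deep peaks (35.2%, 32.3 to 38.3). The difference was 10.1 points (odds ratio 1.53, Fisher's exact p = 0.00180). This limit and test were chosen after the densities were seen, and the p-value is not adjusted. Of the 6 alternatives 2 lost the call, the upper 50% of each list by fold (6.96 points, Fisher's exact p = 0.143) and a q-value of at most 0.01 (10.3 points, p = 0.0909). The median gene holding a deep peak spanned 110.2 kb for K17KO and 156.0 kb for WT peaks, against 33.1 kb for all genes over 10 kb.

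Within the gene, the median deep peak lay 22.8 kb from the nearest gene end, with quartiles of 11.3 and 59.9 kb, and 40 lay over 100 kb away. The 5 farthest were in Cntnap2 (952.2 kb), Lrp1b (618.6 kb), Adamtsl1 (429.3 kb), Ccser1 (332.3 kb) and Cdkal1 (319.1 kb), with folds from 4.63 to 6.17. Lrp1b encodes a large receptor of the LDL receptor family and Cdkal1 an enzyme that modifies transfer RNA. At the limit of the rule, the members just inside were in Dnajb14 (5003 bp, 5.86-fold), Ppp1r21 (5046.5 bp, 3.77-fold) and Ndst2 (5048.5 bp, 3.88-fold). Those just outside were in Ep300 (4943.5 bp, 5.19-fold), Cipc (4932 bp, 6.06-fold) and Morc1 (4868 bp, 6.08-fold). For the 235 deep peaks in 1 gene of known strand, 44.7% lay in the 5′ 50% of the gene (95% interval 38.2 to 51.3), against 51.0% of 820 WT deep peaks (47.5 to 54.4).

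No deep peak lay on chromosome X, which offers 38.2 Mb of such sequence. A count of 0 allows up to 7.85 peaks per 100 Mb there by the limit of 3 counts, for counting error only, against 35.3 over all chromosomes. The two-sided 95% Poisson interval drawn in the plot by chromosome reaches 9.66. The WT list had 3 deep peaks on X, or 7.85 per 100 Mb (95% Poisson interval 1.62 to 23.0), against 117.6 overall. Near gene ends X was low as well, with 19.6 K17KO peaks per 100 Mb against 127.4 overall. Among the autosomes the K17KO density ran from 23.3 per 100 Mb on chromosome 3 to 56.0 on chromosome 17.

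**Figure D3:**
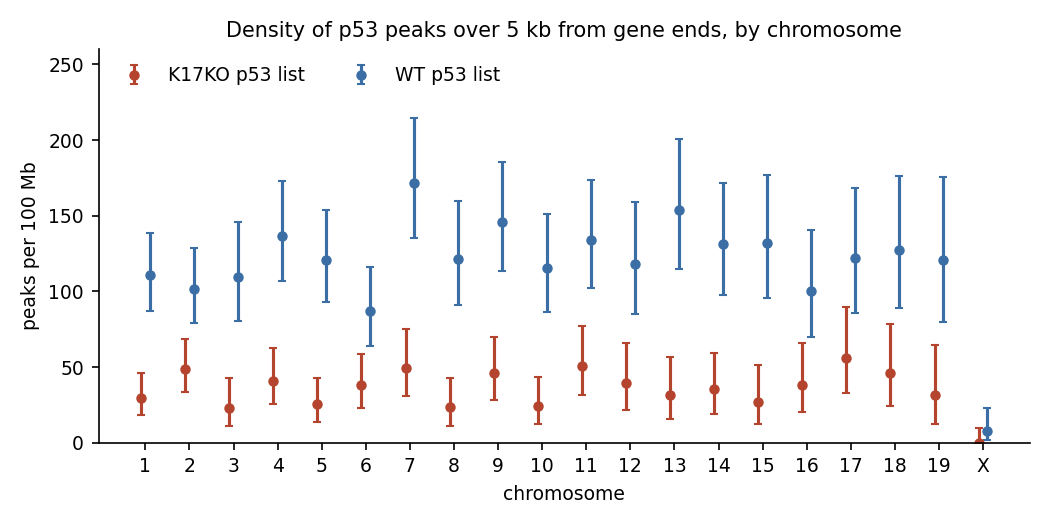
Deep peaks per 100 Mb of admitted gene body by chromosome for the K17KO and WT p53 lists, with 95% Poisson intervals; chromosome Y, with 1.37 Mb of such sequence and no peak, is not drawn. Chromosome X has 0 K17KO and 3 WT peaks and lies below every autosome in both lists.

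Overlap with H3K4me3 was compared between deep and other peaks. Of the 302 deep peaks 2 overlapped an H3K4me3 peak (0.662%, 95% interval 0.0803 to 2.37), against 6.09% of the whole K17KO list. Near gene ends 60 of 417 did (14.4%), a difference of −13.7 points (95% interval −17.5 to −10.2). The distance rule itself lowers the deep share, since it removes peaks near gene starts, where this mark lies, so no test is read from that difference. Between genes 5 of 368 did (1.36%), and the difference of −0.696 points (−2.54 to 1.19) did not pass (Fisher's exact adjusted p = 0.467). In the WT list 3 of 1005 deep peaks did (0.299%), against 0.963% of that whole list, and the difference of 0.364 points from K17KO (−0.386 to 2.09) did not pass either (Fisher's exact adjusted p = 0.374). With a limit of 1 kb it did, at 13 of 437 against 9 of 1195 (2.22 points, Fisher's exact adjusted p = 0.00924). That limit admits peaks 1 to 5 kb from gene starts and ends. A higher share in the K17KO list was not particular to deep peaks, being 14.4% against 3.98% in the WT list near gene ends.

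The 2 peaks were in Tbce and Tnrc18. Tbce encodes a chaperone of tubulin folding. Its peak at chr13:14021328-14022099 was the widest of all deep peaks at 772 bp, with 355 bp covered by the H3K4me3 peak, 5.11-fold and 9 fragments over 0.956. The Tnrc18 peak lay 5296 bp inside the start of the gene in the gene table, near the limit of the rule, and 710 bp from another listed start of Tnrc18, with 342 bp covered and 4.42-fold. Another, in the Rac regulator gene Arhgap24, had its midpoint 0.493 kb from an H3K4me3 peak without overlap (5.68-fold). The median deep peak was 106.8 kb from the nearest H3K4me3 peak, against 50.5 kb for peaks near gene ends and 219.1 kb for those between genes. Of the 293 genes with a deep peak, 80 had an H3K4me3 peak within 5 kb of their own start or end (27.3%), against 23.8% of all genes over 10 kb and 24.0% of the 881 genes with a WT deep peak.

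**Figure D4:**
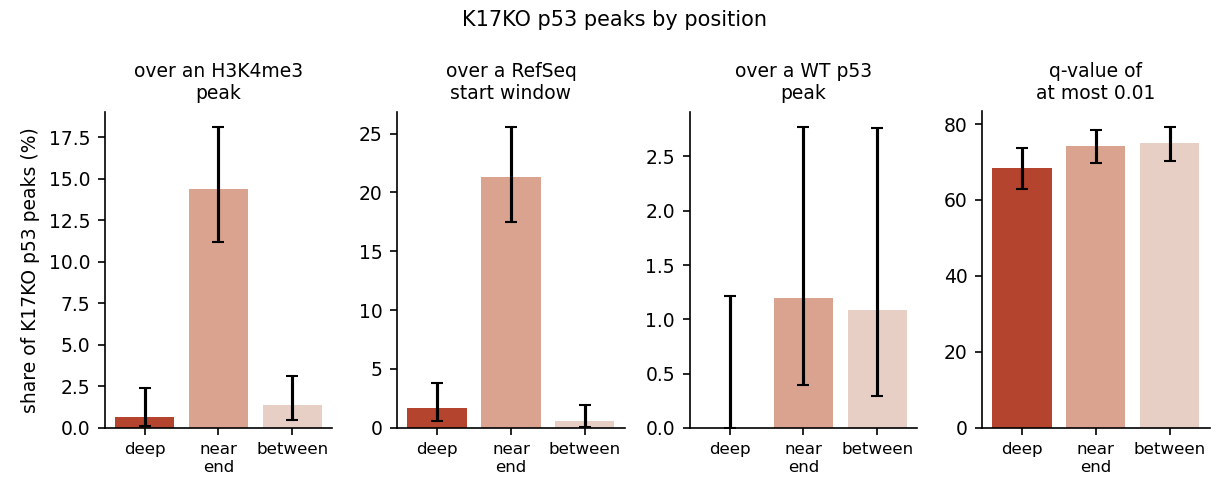
Share of K17KO p53 peaks that overlap an H3K4me3 peak, a RefSeq start window or a WT p53 peak, or have a q-value of at most 0.01, for 302 deep peaks, 417 near gene ends and 368 between genes, with exact 95% binomial intervals; each panel has its own scale from 0. The deep bars are at 0.662%, 1.66%, 0% and 68.5%, and the near-end bars at 14.4%, 21.3%, 1.20% and 74.3%.

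No deep peak overlapped a WT p53 peak, so 0 of 302 were in both p53 lists, which allows a share of up to 0.993% by the limit of 3 counts (the exact two-sided 95% interval drawn in the plot of shares reaches 1.21%). Over the whole K17KO list 0.817% did, with 5 of 417 near gene ends and 4 of 368 between genes. The differences of −1.20 points (95% interval −2.78 to 0.232) and −1.09 points (−2.76 to 0.334) did not pass Fisher's exact test (p = 0.0778 and 0.131, adjusted p = 0.149 and 0.175). The nearest pair of K17KO and WT peaks was in Prkca, which encodes protein kinase C alpha, where the K17KO midpoint (4.50-fold) lay 1.23 kb from the WT peak. In Mctp1 (4.60-fold) it was 1.63 kb, in Tanc1 (5.40-fold) 1.91 kb, and in the zinc finger factor gene Bcl11b (3.43-fold) 3.84 kb. The Tanc1 peak was also 1.75 kb from an H3K4me3 peak. In all, 12 deep peaks lay within 10 kb of a WT peak, and the median distance was 238.7 kb. The midpoint was within 1 kb of a WT peak for 0 of 302 deep peaks. This held for 8 of 417 near gene ends and 6 of 368 between genes (Fisher's exact adjusted p = 0.0633 and 0.0702).

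At the level of genes, 54 held deep peaks of both lists, which is 18.4% of the 293 genes with a K17KO deep peak and 6.13% of the 881 with a WT one. These are long genes, with a median of 400.6 kb, and the closest pair within a gene was a median of 57.4 kb apart. Over all genes over 10 kb, 6.31% held a WT deep peak.

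A pair of deep peaks lay in each of 11 genes. Col6a3, a collagen VI chain gene of connective tissue, had peaks of 5.15-fold and 5.85-fold lying 11.4 kb apart (14 fragments over 1.91 and 12 over 1.22). Runx1, a transcription factor gene that regulates blood and hair follicle stem cells, had 4.66-fold and 5.11-fold peaks 47.6 kb apart, with 10 and 9 fragments. Lmx1b, a homeobox gene of limb patterning, had 4.65-fold and 5.09-fold peaks 34.8 kb apart, with 14 and 13 fragments. None of these 3 genes held a WT deep peak, and most genes of their lengths did not either. Such a peak lay in 6.80% of genes of 50 to 100 kb and in 28.0% of those of 200 to 500 kb. The closest pair was 1.83 kb apart in Tmem44 (4.18-fold and 3.73-fold), and the widest 431.6 kb apart in Ank2. Ripor3, Cpvl, Sobp, Thada and Adamtsl1 complete the set with Dscaml1, and 3 of the 11 genes (Dscaml1, Adamtsl1 and Ank2) also held a WT deep peak.

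Gene groups were described by how many of their members over 10 kb held a deep peak, beside 2.10% of all such genes and 35.2 peaks per 100 Mb. Of 34 p53 target genes, 1 did, Sulf2, which encodes an extracellular enzyme that edits heparan sulfate (3.88-fold, 14 fragments over 2.87). That is 2.94%, near the share of all genes. Of 44 DNA damage signalling and repair genes, 1 did, Fhit, a long gene at a chromosomal fragile site (4.09-fold, 7 over 0.956). None of 32 cell cycle genes did. On so few genes that allows up to 167.5 peaks per 100 Mb by the limit of 3 counts, above the 35.2 of all genes. Of 43 genes of the Wnt, Hedgehog, Bmp and Notch pathways, 1 held a deep peak, the Hedgehog repressor gene Sufu (2.90-fold).

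The keratin and hemidesmosome group, genes that anchor basal keratinocytes, had 3 of 15 members with a deep peak (20%). These were Col7a1, the integrin beta 4 gene Itgb4 (4.98-fold, 17 fragments over 2.61) and the plakin gene Dst (4.56-fold, 8 over 0.973). The Itgb4 peak lay 16.2 kb from the nearest end of a 33.7 kb gene. The group had 186.6 peaks per 100 Mb (95% Poisson interval 38.5 to 545.3) on 1.61 Mb, with 1 WT deep peak, in Dst. Its median gene spanned 49.5 kb. The interval includes the 56.9 of all genes of 10 to 50 kb and the 45.6 of those of 50 to 100 kb. The value rests on 3 peaks, in a list chosen with earlier results of these data known. Among hair follicle stem cell regulators 2 of 22 had deep peaks, Runx1 and Foxp1 (5.66-fold, 10 over 0.945), and among epidermal differentiation and barrier genes 1 of 23, Tgm1, the transglutaminase gene of the cornified envelope (3.70-fold, 14 over 3.06). Of 38 matrix and dermal fibroblast genes, Col6a3 and Adamtsl1 each held 2.

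Long genes made up most of the next 4 groups. Of 50 synaptic adhesion and axon guidance genes 6 had a K17KO deep peak (12%), at 16.8 peaks per 100 Mb (95% Poisson interval 6.76 to 34.6). They were led by Dscaml1, Cntnap2, Slit3, Tenm4 (5.11-fold) and Lrp1b (4.96-fold). Of 50 cell adhesion and cytoskeleton genes 4 did, Dock1, Utrn and Mast4 (5.63-fold each) and the formin gene Diaph3 (5.14-fold), at 14.2 per 100 Mb (3.87 to 36.4). Of 50 intracellular signalling enzyme genes 5 did, at 22.9 per 100 Mb (7.43 to 53.4), among them Ptprg, a receptor phosphatase gene (5.63-fold), and the phosphodiesterase genes Pde10a (5.0-fold) and Pde4d (4.87-fold). Of 51 ion channel and neurotransmitter receptor genes 2 did, Scn2a (4.73-fold) and Gabrb1 (4.47-fold), at 7.82 per 100 Mb (0.946 to 28.2), beside an interval of 31.4 to 39.4 for all genes. The intervals of the adhesion and cytoskeleton group and of the signalling enzymes include the 35.2 of all genes. The median genes of the synaptic and ion channel groups spanned 773.0 and 436.8 kb. All genes over 500 kb had 17.5 peaks per 100 Mb, and those of 200 to 500 kb had 29.4. The synaptic interval includes both values. The ion channel interval, which rests on 2 peaks, includes 17.5 and ends below 29.4. It overlaps the 95% Poisson interval of the genes of 200 to 500 kb, 22.7 to 37.4. The WT list had deep peaks in 20, 19, 22 and 17 genes of these 4 groups, at 72.0, 88.9, 123.6 and 78.2 peaks per 100 Mb, beside 117.1 for all genes.

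Chromatin and RNA regulators had 3 of 50, the splicing factor gene Rbfox1 (5.66-fold), Zbtb20 (5.63-fold) and the remodeller gene Chd7 (3.12-fold). Among markers of other cell types in skin, 1 of 15 endothelial genes had a deep peak, Mecom (4.63-fold), and none of 15 immune, 10 melanocyte, 11 adipocyte and 12 skeletal muscle genes did. With this few genes such counts of 0 allow densities of up to 239.5 (immune) to 462.8 (melanocyte) peaks per 100 Mb by the limit of 3 counts, so these groups could not be told from the rest. No group was tested.

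Noncoding genes were considered last. Of the 302 deep peaks 14 lay inside a noncoding gene, 10 within 1 kb and 32 within 5 kb of the end of one. These are 4.64%, 3.31% and 10.6% of the deep peaks (95% intervals 2.56 to 7.66, 1.60 to 6.01 and 7.36 to 14.6). The same zones take up 4.74%, 2.05% and 8.36% of the admitted gene body, and held 5.37%, 2.49% and 10.7% of the WT deep peaks. All the intervals of the deep peaks include the share of gene body. Holding the peaks to 5 kb from the ends of all genes, noncoding ones included, left 270 deep peaks.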

How the data were processed

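The 12 labelled samples are represented by 3 peak lists, which the authors made with tools that include Bowtie2 2.2.5, SAMtools 1.7 and MACS2 2.1.2 on mm10, per the submitters' processing notes. The libraries, control and threshold were not given in the sources used here. For a peak there is a fold, deposited by the authors as a ratio of pileup to background. Its significance was deposited as −log10 p and, adjusted, as −log10 q. The deposited score is 10 times the −log10 p, cut to a whole number. They describe peaks within a list only. Fragments k and background b were recovered as whole k with fold = (k + 1)/(b + 1) and p the upper Poisson tail, within 0.000445 in −log10 p.

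Genes came from a RefSeq table of GRCm38.p6 (49943 genes, 21887 protein-coding). Strand came from the start windows, which cover 27025 gene symbols. Overlap means at least 1 bp. A Mb is counted again for overlapping genes in gene classes and groups. The 18 gene lists (638 entries) matched except for 3 p53 entries. Named are the 10 peaks highest by fold and by −log10 p, overlaps with other lists, genes with 2 peaks, the 5 farthest and the 3 on each side of the limit, and up to 5 members a list; the genes at internal starts or closest to WT or H3K4me3 peaks, Tmem44, Stam2 and Ahnak2 were chosen after their values were seen. Members and lists were chosen with earlier results of these data known. Motifs were searched in start windows only, since no genome was at hand, a departure from the design. Peak placement and the recovery of fragments and background were checked on simulated data, and the overlap count on shifted copies of K17KO peaks. Other steps had no such check. Python 3.11.15, scipy 1.17.1 and statsmodels 0.14.6 were used. Intervals are exact (Clopper-Pearson or Poisson) or, for differences, Newcombe's.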

Additional observations from a re-analysis of the deposited data

Results flagged for a closer look

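The share of a p53 list that lay deep inside genes differed between the K17KO and WT lists by a test of the difference itself, with peaks as its units. It was 27.4% in the K17KO list and 34.5% in the WT list, a difference of −7.12 points (Fisher's exact adjusted p = 6.634e-05). The difference did not pass with a limit of 1 kb (−1.39 points, Fisher's exact adjusted p = 0.437) or among peaks with a q-value of at most 0.01 (−4.89 points, Fisher's exact adjusted p = 0.326). The whole placement of peaks differed between the lists, so the difference is not particular to deep peaks. Peaks near gene ends were 417 of 1101 in the K17KO list and 502 of 2909 in the WT list. Those between genes were 368 of 1101 and 1397 of 2909. Both gaps were wider than that of deep peaks, and neither was tested. Each genotype is a single list, so genotype and list cannot be told apart, and the lists differ in the lowest −log10 q they hold.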

How the results depend on the processing

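Results were recomputed with other distances, placement by summit, subsets of peaks, other gene ends and other overlaps, 86 values in all, of which 74 kept their direction and their side of the threshold, or for the number of deep peaks stayed within 1.5 times. Of these, 10 concern H3K4me3 at deep against near-end peaks, a direction the distance rule favours in every setting, so they show no stability. In the upper 50% by fold every deep, near-end and between-gene K17KO peak met the q-value limit, so that share gave no value there. The comparisons of WT p53 overlap passed in none of their 20 alternatives. They rest on at most 2 overlapping deep peaks in any setting, too few for unchanged calls to show stability. With a limit of 1 kb the difference in deep share was −1.39 points, that in H3K4me3 overlap from peaks between genes turned to 1.50 points, and that from WT deep peaks passed at 2.22 points. At a q-value of at most 0.01 these were −4.89, 0.242 and −0.852 points, the first no longer passing and the others turned. The H3K4me3 difference from peaks between genes also turned to 0.230 points in the upper 50% by fold, which holds 142 deep peaks, and to 0.0119 points with all genes setting the ends. It rests on 2 peaks and passed in no setting. The q-value difference from near-end peaks was −8.28 points at 0.001. It passed there only with the H3K4me3 test against near-end peaks in the family, so it is not read. The higher share in genes of at most 100 kb no longer passed in the upper 50% by fold (6.96 points) or at a q-value of at most 0.01 (10.3 points). The cause was not tested. The limits set by every listed RefSeq start, and the alternatives to the 100 kb share, were chosen after seeing the data. No paired analysis was possible because the lists name no replicate, and no replicate could be left out. Counts of 6 to 16 fragments at most peaks limit the precision of every fold.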
